A study of Canis lupus familiaris with 4 samples.

Results

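The genes described here are GPX2, NQO1, GCLM and TXNIP, 4 genes of the glutathione and thioredoxin systems, in canine mammary ductal carcinoma (libraries T1 and T2) and adjacent non-tumor mammary tissue (libraries C1 and C2, the control). They are 4 of the 11277 genes in the count tables, found by their gene symbol. All 4 were chosen from these same libraries, among the antioxidant genes whose difference between carcinoma and control passed a test. Their carcinoma and control values are therefore given as a description with no test. Other redox genes that passed are named below. Each library was made from total RNA of a pool of 3 dogs, from 6 non-neutered female dogs of different breeds aged 5 to 14 years. No treatment, allele or transgene separated the groups. By the study's account C1 and T1 came from the same animals (pool 1), as did C2 and T2 (pool 2), so an n of 2 counts pools, and single dogs are not seen. Tissue was taken whole, and fewer cells of a type and less RNA per cell cannot be told apart in such samples.

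Cells remove hydrogen peroxide and reactive organic molecules with thiol groups that are oxidized and then restored with NADPH. The glutathione system uses a small peptide made by glutamate-cysteine ligase and glutathione synthetase, and glutathione peroxidases and transferases spend it. The thioredoxin system uses a small protein, its reductase and the peroxiredoxins. The transcription factor NRF2, encoded by NFE2L2 and held back by KEAP1, is known in human and mouse cells to drive GPX2, NQO1 and the glutamate-cysteine ligase genes. TXNIP belongs to the alpha-arrestins, binds thioredoxin and is known to respond to glucose through the factor encoded by MLXIP.

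The libraries held 35496260 counts in T1, 3236218 in T2, 32352002 in C1 and 4027367 in C2, so pool 2 limits the precision of genes with few counts. Levels are given as CPM, counts scaled to library size with TMM factors, and a count of 0 allows up to 0.0858 to 0.892 CPM across the libraries (3 counts, counting error only). Differences between the tissues were tested with edgeR's quasi-likelihood test. A gene was called where its adjusted p (Benjamini-Hochberg over all genes) was under 0.05 and its log2 fold change was at least 1 in size. Of all genes, 4.61% were called higher and 5.23% lower in carcinoma. Mammary epithelium was present in every library by its markers EPCAM and KRT5, with EPCAM at 180 and 147 CPM in carcinoma and 252 and 155 CPM in control. Of 9 measured luminal markers 4 were lower in carcinoma (ELF5, ESR1, PGR and PRLR), and the list summed to 1610 and 1610 CPM in carcinoma and 2850 and 2670 CPM in control. All 8 measured markers of striated muscle were lower, summing to 21.6 and 27.1 CPM in carcinoma and 1900 and 3050 CPM in control, with MYL3 at 0 counts in both carcinoma libraries. Of 5 measured neutrophil markers 4 were higher (LTF, S100A8, S100A9 and S100A12), and the list summed to 3120 and 3970 CPM in carcinoma and 375 and 522 CPM in control. LTF carried most of the counts, as its ratio of carcinoma to control had the narrowest counting interval (8.39 in pool 1, 8.23 to 8.57). The sum is therefore mainly a reading of LTF. In pools 1 and 2 the ratio was 15.1 and 10.6 for S100A8, 9.57 and 10.4 for S100A9, and 2.78 and 1.92 for CXCL8, which was not called. The part of these cell types in the results below was not tested.

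GPX2, which encodes a selenium-dependent glutathione peroxidase best known from the gut epithelium, was nearly silent in control and clearly present in carcinoma. It had 77.2 CPM in T1 and 85.7 CPM in T2, against 1.15 CPM in C1 and 2.32 CPM in C2. The carcinoma libraries lay close together and the lower of them stood 33.3 times above the higher control. The control values rest on 34 counts in C1 and 10 in C2, whereas carcinoma had 2697 and 288 counts. Mean levels were 81.4 ± 5.99 CPM in carcinoma and 1.73 ± 0.825 CPM in control (SD, n = 2 pools each), a ratio of 46.9 and a log2 fold change of 5.72, which ranked 2 of the 11277 genes from the top. Within pool 1 the ratio of carcinoma to control was 67.0 (95% interval 47.8 to 97.0, counting error only), and within pool 2 it was 37.0 (19.8 to 77.9). Without C1 the log2 fold change was 5.00. Of 2 measured markers of intestinal epithelium, OLFM4 was higher in carcinoma (157 and 134 CPM in carcinoma, 6.57 and 5.33 CPM in control, log2 fold change 4.54, adjusted p = 0.00147), while LGR5 had a log2 fold change of 0.36 (adjusted p = 0.471).

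NQO1, which encodes an enzyme that reduces quinones with NADH or NADPH, was about 4 times as high in carcinoma in each pool. It had 45.6 CPM in T1 and 52.0 CPM in T2, against 11.5 CPM in C1 and 12.98 CPM in C2. The groups did not overlap, and the spread within each was small beside the distance between them. The means were 48.8 ± 4.57 CPM in carcinoma and 12.3 ± 1.01 CPM in control (SD, n = 2 pools each), with a log2 fold change of 1.99. The ratio of carcinoma to control was 3.95 in pool 1 (95% interval 3.51 to 4.45) and 4.01 in pool 2 (2.95 to 5.52), so that the intervals of the pools overlap. NQO2, its paralog, had 11.8 and 14.0 CPM in carcinoma and 8.94 and 12.8 CPM in control, with overlapping groups and a log2 fold change of 0.26 ± 0.30 (SE, adjusted p = 0.618). Without C1 the log2 fold change of NQO2 was −0.05. Within a library the CPM ratio of NQO1 to NQO2 was 3.88 in T1 and 3.72 in T2, against 1.29 in C1 and 1.02 in C2.

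GCLM, which encodes the modifier subunit of glutamate-cysteine ligase, the enzyme of the first step of glutathione synthesis, was higher in carcinoma while its partner was not. It had 73.6 CPM in T1 and 59.2 CPM in T2, against 23.7 CPM in C1 and 24.8 CPM in C2. The controls were almost equal, and T1 stood above T2. Means were 66.4 ± 10.2 CPM in carcinoma and 24.3 ± 0.776 CPM in control (SD, n = 2 pools each), a ratio of 2.74 and a log2 fold change of 1.46. The ratio was 3.11 in pool 1 (95% interval 2.86 to 3.38) and 2.39 in pool 2 (1.88 to 3.05). GCLC, which encodes the catalytic subunit, went the other way, with 99.7 and 91.6 CPM in carcinoma and 139 and 134 CPM in control. Its log2 fold change was −0.51 ± 0.11 (SE, adjusted p = 0.0421), which is past the p threshold and short of the fold threshold, and its ratio was below 1 in both pools. The CPM ratio of GCLM to GCLC within a library was 0.739 in T1 and 0.646 in T2, against 0.170 in C1 and 0.185 in C2. Gene length does not enter the change of such a ratio between libraries, but the ratio itself is not one of molecules.

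TXNIP, whose protein binds thioredoxin and takes glucose transporters off the cell surface, was the member that was lower in carcinoma. It had 355 CPM in T1 and 396 CPM in T2, against 758 CPM in C1 and 893 CPM in C2. The lower control stood 1.91 times above the higher carcinoma library, and pool 2 was the higher pool in both tissues. Means were 376 ± 29.1 CPM in carcinoma and 826 ± 95.4 CPM in control (SD, n = 2 pools each), a change of −54.5% and a log2 fold change of −1.14. TXNIP carried the most counts of the members, from 1333 in T2 to 22396 in C1, and had the narrowest intervals, with a ratio of 0.469 in pool 1 (95% interval 0.458 to 0.479) and 0.444 in pool 2 (0.417 to 0.472). It was also the member closest to the thresholds for a call in the edgeR fit. Among redox genes just outside those thresholds were PRDX2, with a log2 fold change of 1.05 and an adjusted p of 0.0667, and MGST1, with 0.86 and 0.0461. HPGDS, with −1.25 and 0.0560, lay outside them in the other direction.

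**Figure D1:**
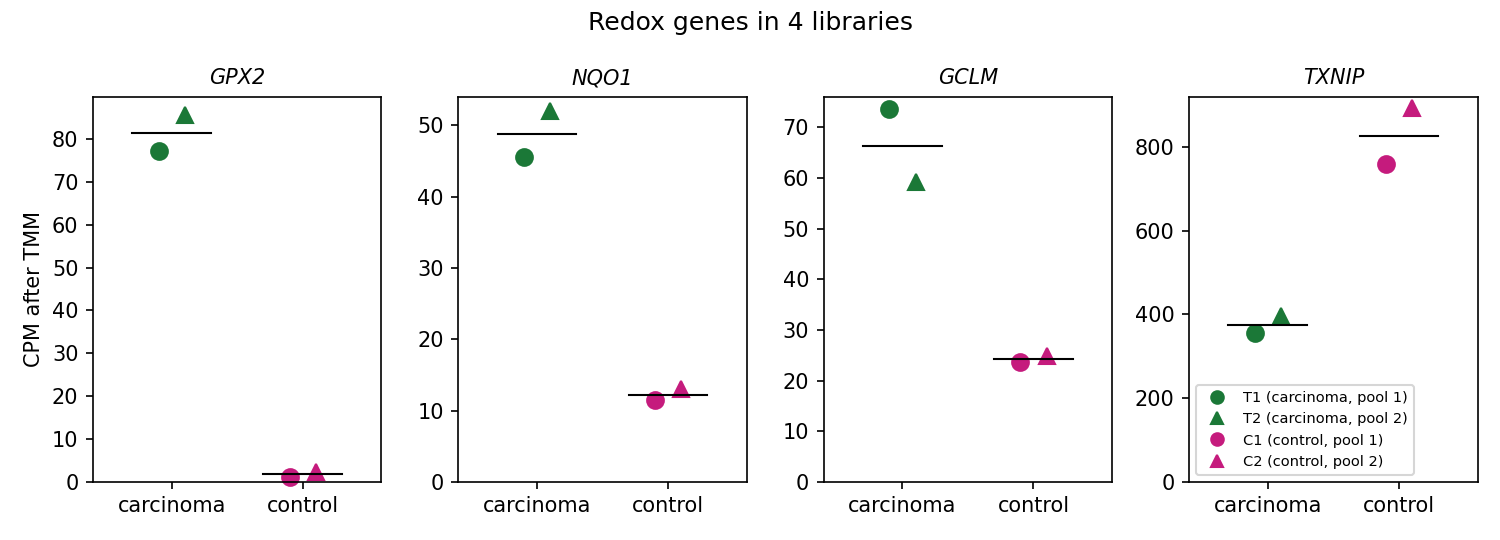
CPM after TMM (linear axes from 0, a scale of its own for each gene) of GPX2, NQO1, GCLM and TXNIP in the carcinoma libraries T1 and T2 and the control libraries C1 and C2, with a line at each group's mean. Circles are pool 1 and triangles pool 2, and for TXNIP both carcinoma libraries (355 and 396 CPM) lie below both controls (758 and 893 CPM).

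For all 4 genes the carcinoma libraries lay on one side of both controls. The groups did not overlap for 57.6% of all genes, and both carcinoma libraries lay above both controls for 29.6%. Such an order was bound to hold for genes chosen on this contrast, so nothing is read from it. In the gene table of the dog RefSeq annotation (assembly UU_Cfam_GSD_1.0) 0 genes overlap any of the 4. Overlap matters because the sources name different counting tools, and a setting that bears on strand (the default) is given for HTSeq alone. The build used for counting is not given. The lengths beside the counts, 4175 for NQO1 and 12705 for GCLM, differ from the spans in that annotation (11495 and 21653). The counts may rest on other gene bounds, whose overlap was not tested.

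The difference between the pools was tested with tissue as a term in the model. The members were not chosen on it directly. A tissue test without a pool term counts it as error, though, and so favors genes where it is small. The pool difference is given as pool 1 over pool 2, and 5.76% of all genes were called in it (0.656% higher and 5.10% lower in pool 1). None of the 4 members was called, and nothing is read from this, as their choice favored it. TXNIP had a log2 fold change of −0.20 ± 0.05 (SE, adjusted p = 8.54e-04), a small offset in the same direction in both tissues, and by DESeq2 its adjusted p was 0.0990. GPX2 had a log2 fold change of −0.19 ± 0.12 (SE, adjusted p = 0.204), NQO1 one of −0.18 ± 0.12 (SE, adjusted p = 0.233) and GCLM one of 0.17 ± 0.10 (SE, adjusted p = 0.179). Each pool is a single set of dogs, sampled in both tissues. The p-values of this comparison therefore measure how far the tissues of a pool agree, and hold no variation between sets of dogs. Pool 1 was also the more deeply sequenced pool, and by the study's account its dogs were older on average. Dogs, their age and depth therefore cannot be told apart.

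**Figure D2:**
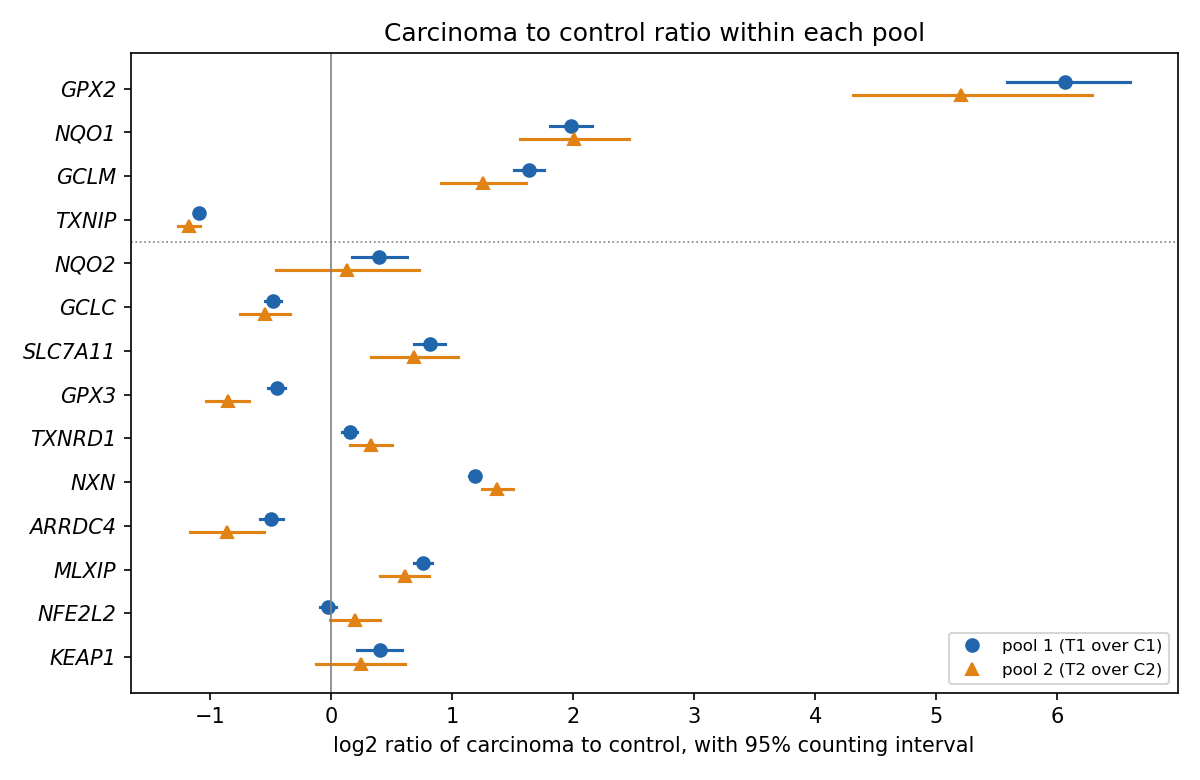
Log2 ratio of carcinoma to control within pool 1 (T1 over C1, circles) and pool 2 (T2 over C2, triangles) for the 4 members (above the dotted line) and 10 related genes, with 95% intervals that cover counting error only. GPX2 lies at ratios of 67.0 and 37.0, GCLM and GCLC lie on opposite sides of 0, and the interval of NFE2L2 spans 0 in both pools.

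The rest of these pathways was followed with 13 lists of 173 gene symbols, without the 4 members. Of these, 108 were measured and 65 were not analysed here, among them GSR, GPX1, GPX4, TXN, CAT and SRXN1. Among the 65 was also REDD1, another symbol for DDIT4, which was measured. In carcinoma 8 of the 108 were called higher, 4 were called lower and 96 did not pass. This is a share of 11.1%, close to the 9.84% of all genes called in either direction. Their median log2 fold change was 0.24, beside 0.03 over all genes tested, and 70 of the 108 had a positive value. The 8 that were higher were DUOX1, DUOXA1, PIR, SLC2A1, ABCC4, CTH, NXN and GSTM4, and the 4 that were lower were NOX5, CYBB, XDH and NOX4. Without C1, the calls of CTH, DUOX1, DUOXA1, GSTM4, SLC2A1 and NOX4 were lost. Under each of the 11 alternative settings, leaving out each library included, ABCC4, NXN, PIR, CYBB and XDH were called in the same direction.

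**Figure D3:**
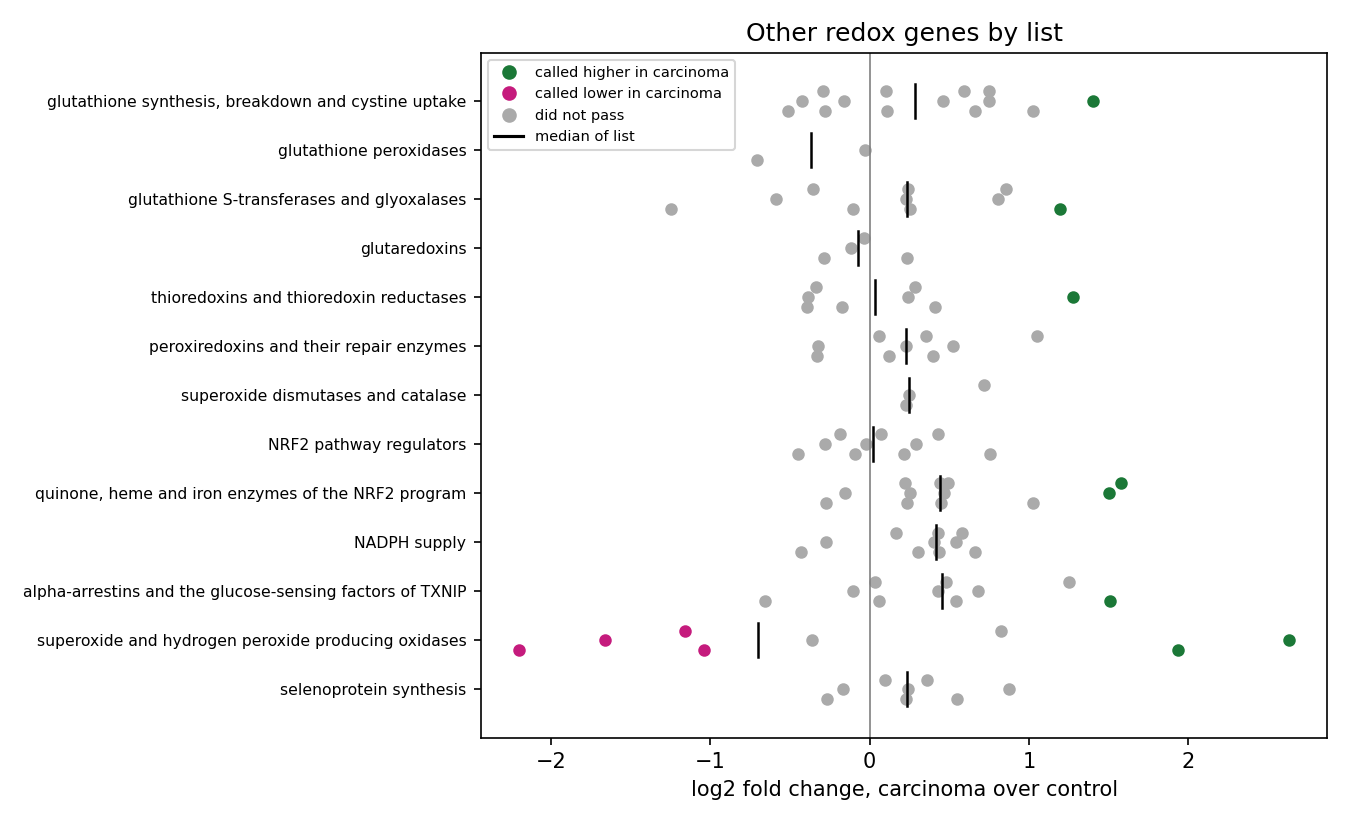
Log2 fold change of carcinoma over control (x axis) for each measured gene of the 13 redox lists (rows), 1 point per gene, spread vertically for legibility, with a black line at each list's median. Most points lie near 0, and the oxidase list has called genes on both sides, 2 higher and 4 lower.

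Among genes of glutathione synthesis, breakdown and cystine uptake, 1 of 14 measured was higher, 0 were lower (edgeR, 2 at an unadjusted p under 0.05 and 0 by DESeq2) and 13 did not pass. CTH, which encodes the enzyme that releases cysteine from cystathionine, had 25.2 and 22.6 CPM in carcinoma and 7.76 and 10.7 CPM in control, which gave a log2 fold change of 1.40 ± 0.26 (SE, adjusted p = 0.0275). Its adjusted p was 0.172 without C1, 0.124 without T1 and 0.0575 on library totals alone. SLC7A11, which encodes the cystine importer, had 44.3 and 44.3 CPM in carcinoma and 25.2 and 27.6 CPM in control, which gave a log2 fold change of 0.75 ± 0.16 (SE, adjusted p = 0.0409) that was short of the fold threshold. GSS, which encodes glutathione synthetase, differed little, with a log2 fold change of 0.11 ± 0.14 (SE, adjusted p = 0.639). ANPEP and LAP3, which encode peptidases that can split the breakdown products of glutathione, had log2 fold changes of −0.42 (adjusted p = 0.116) and −0.28 (adjusted p = 0.224).

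The other measured glutathione peroxidase genes, GPX3 and GPX7, were not called (edgeR, 0 at an unadjusted p under 0.05 and 0 by DESeq2), and both had log2 fold changes below 0. GPX3, which encodes the secreted plasma form, had 79.2 and 115 CPM in carcinoma and 108 and 208 CPM in control, with a log2 fold change of −0.71 ± 0.36 (SE, adjusted p = 0.270). Its groups overlapped, as pool 2 was the higher one in both tissues, but carcinoma was lower than control within each pool. The ratio of carcinoma to control was 0.731 in pool 1 (counting interval 0.694 to 0.769) and 0.552 in pool 2 (0.489 to 0.623). The log2 fold change was −1.16 without C1, −0.18 without C2, −0.50 without T1 and −0.99 without T2. Leaving out a library unbalances the pools, so these values also hold the difference between the pools. GPX7, which encodes a form of the endoplasmic reticulum, had 18.0 and 13.1 CPM in carcinoma and 17.3 and 14.8 CPM in control, which gave a log2 fold change of −0.03 ± 0.26 (SE, adjusted p = 0.953) whose sign was positive on library totals alone.

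Of 10 measured glutathione S-transferase and glyoxalase genes 1 was higher and 0 were lower (edgeR, 2 at an unadjusted p under 0.05, and 1 by DESeq2). GSTM4, which encodes a cytosolic transferase of the mu class, had 37.7 and 33.9 CPM in carcinoma and 17.0 and 13.9 CPM in control, which gave a log2 fold change of 1.19 ± 0.21 (SE, adjusted p = 0.0225). The mu class holds closely similar genes, and its reads may be split among them. The adjusted p of GSTM4 was 0.117 without T1, 0.0706 without C1 and 0.0632 without C2. MGST1, which encodes a membrane-bound transferase, had 130 and 115 CPM in carcinoma and 78.3 and 56.1 CPM in control, short of the fold threshold with all libraries and called without C1 (log2 fold change 1.08, adjusted p = 0.0289). HPGDS, which encodes a prostaglandin D synthase of the transferase family, had a log2 fold change of −1.25 ± 0.30 (SE, adjusted p = 0.0560), and with pool number as a replicate block it was called lower (−1.21, adjusted p = 4.07e-19), as it was by DESeq2 (adjusted p = 0.0108).

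In the thioredoxin list 1 of 8 measured genes was higher and 0 were lower (edgeR, 0 at an unadjusted p under 0.05 and 0 by DESeq2). NXN, which encodes nucleoredoxin, a member of the thioredoxin family known to bind the Wnt mediator Dishevelled, had 402 and 442 CPM in carcinoma and 177 and 171 CPM in control. Its log2 fold change was 1.28 ± 0.11 (SE, adjusted p = 0.00405), with both replicates of each tissue close together. TXNRD1, which encodes the cytosolic thioredoxin reductase, had 140 and 157 CPM in carcinoma and 126 and 125 CPM in control, which gave a log2 fold change of 0.24 ± 0.11 (SE, adjusted p = 0.245). TXNDC9 had one of −0.39 (adjusted p = 0.268). Of 4 glutaredoxin genes 0 were called (edgeR, 0 at an unadjusted p under 0.05 and 0 by DESeq2), with log2 fold changes between −0.29 and 0.24.

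No peroxiredoxin or repair gene was called among 9 measured (edgeR, 2 higher and 1 lower at an unadjusted p under 0.05, and by DESeq2 1 higher). PRDX2, which encodes a cytosolic peroxiredoxin, had 45.3 and 65.7 CPM in carcinoma and 22.7 and 31.1 CPM in control. With pool number as a replicate block it was called higher (log2 fold change 1.02, adjusted p = 3.41e-21), as it was without T1 (1.26, adjusted p = 0.0469) and without C2 (1.27, adjusted p = 0.0408). SESN3, which encodes a sestrin, had a log2 fold change of −0.33 (adjusted p = 0.135), and MSRB3, which encodes a methionine sulfoxide reductase, one of 0.39 (adjusted p = 0.147). Of the superoxide dismutase list 0 of 3 measured genes were called (edgeR, 1 at an unadjusted p under 0.05, 0 by DESeq2). SOD1 had a log2 fold change of 0.23 (adjusted p = 0.346), SOD2 one of 0.24 (adjusted p = 0.255) and CCS, which encodes the copper chaperone of SOD1, one of 0.71 (adjusted p = 0.174).

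The genes that regulate NRF2 did not pass in either direction, with 0 of 10 called (edgeR, 0 at an unadjusted p under 0.05 and 0 by DESeq2). NFE2L2, which encodes NRF2 itself, had 123 and 110 CPM in carcinoma and 126 and 96.0 CPM in control, which gave a log2 fold change of 0.07 ± 0.17 (SE, adjusted p = 0.814), while without T1 it was −0.06 and without C2 −0.10. KEAP1, which encodes the adaptor that marks NRF2 for degradation, had 17.1 and 36.0 CPM in carcinoma and 12.97 and 30.4 CPM in control, so that the pools differed more than the tissues. Its log2 fold change between the tissues was 0.29 ± 0.55 (SE, adjusted p = 0.765), or −0.29 without T2 and −0.29 without C1. NFE2L1, which encodes a factor related to NRF2, had one of 0.43 (adjusted p = 0.194), SQSTM1, which encodes a protein that binds KEAP1, one of 0.75 (adjusted p = 0.318), which was 0.15 (adjusted p = 0.935) without T2, and CUL3, which encodes the ubiquitin ligase scaffold that works with KEAP1, one of −0.28 (adjusted p = 0.266). These are transcript levels, and NRF2 is known to be controlled mostly as a protein.

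Of 12 measured genes of quinone, heme and iron handling and export, some of them known NRF2 targets in human or mouse cells, 2 were higher, 0 were lower (edgeR, 0 at an unadjusted p under 0.05 and 0 by DESeq2) and 10 did not pass, with a median log2 fold change of 0.44. PIR, which encodes the nuclear iron protein pirin, had 86.7 and 107 CPM in carcinoma and 33.5 and 30.6 CPM in control, which gave a log2 fold change of 1.58 ± 0.16 (SE, adjusted p = 0.00510). ABCC4, which encodes an exporter of organic anions, had 95.9 and 97.8 CPM in carcinoma and 33.8 and 34.5 CPM in control, with nearly equal replicates and a log2 fold change of 1.50 ± 0.12 (SE, adjusted p = 0.00308). UGDH, which encodes UDP-glucose dehydrogenase, had a log2 fold change of 0.47 (adjusted p = 0.0953). The genes that supply NADPH had a median of 0.42, and 0 of 10 were called (edgeR, 4 higher and 1 lower at an unadjusted p under 0.05, 0 by DESeq2). IDH1, which encodes the cytosolic isocitrate dehydrogenase, had one of 0.58 (adjusted p = 0.0632), ME3, which encodes a mitochondrial malic enzyme, one of 0.43 (adjusted p = 0.0793), and NNT, which encodes the mitochondrial transhydrogenase, one of −0.43 (adjusted p = 0.0716).

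Genes around TXNIP were set apart in a list of alpha-arrestins, the glucose-sensing factors and their known responders, of which 1 of 10 measured was higher and 0 were lower (edgeR, 1 at an unadjusted p under 0.05 and 0 by DESeq2). ARRDC4, the arrestin gene most like TXNIP, had 46.6 and 38.4 CPM in carcinoma and 65.7 and 69.5 CPM in control, which gave a log2 fold change of −0.65 ± 0.15 (SE, adjusted p = 0.0517) that missed both thresholds. MLXIP, which encodes the glucose-sensing factor MondoA, had 123 and 131 CPM in carcinoma and 72.9 and 86.2 CPM in control, which gave a log2 fold change of 0.68 ± 0.13 (SE, adjusted p = 0.0310) that was short of the fold threshold. MLX, its partner, had one of 0.54 (adjusted p = 0.226). SLC2A1, which encodes the glucose transporter that TXNIP protein is known to remove from the cell surface, rose, with 58.5 and 83.6 CPM in carcinoma and 18.6 and 32.0 CPM in control. Its log2 fold change was 1.51 ± 0.33 (SE, adjusted p = 0.0440), and its adjusted p was 0.108 without C1, 0.0904 on library totals alone and 0.0509 with genes of at least 10 counts in every library. DDIT4, a stress gene, had a log2 fold change of 1.25 ± 0.66 (SE, adjusted p = 0.290), and with pool number as a replicate block it was called higher (1.23, adjusted p = 6.02e-14). With a library left out, its log2 fold change was 0.46 (adjusted p = 0.834) without T2, 0.58 (adjusted p = 0.737) without C1, 1.77 without T1 and 2.03 without C2, and it was not called in any of these.

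The list of enzymes that produce superoxide or hydrogen peroxide held 6 of the 12 called redox genes, and of its 8 measured genes 2 were higher, 4 were lower and 2 did not pass. DUOX1, which encodes a dual oxidase of epithelial surfaces, had 14.9 and 25.6 CPM in carcinoma and 2.88 and 3.48 CPM in control, which gave a log2 fold change of 2.63 ± 0.38 (SE, adjusted p = 0.0136, or 0.0681 without C1). DUOXA1, which encodes its maturation factor and lies beside it in the genome, had 4.69 and 3.87 CPM in carcinoma and 1.12 and 0.927 CPM in control. It rested on few counts, 164 and 13 in carcinoma and 33 and 4 in control, and its log2 fold change was 1.94 ± 0.33 (SE, adjusted p = 0.0213). It was not called by DESeq2 (adjusted p = 0.0951), nor without C1 (0.137), T1 (0.0837) or C2 (0.0770).

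CYBB, which encodes the catalytic subunit of the phagocyte oxidase, had 40.9 and 39.9 CPM in carcinoma and 139 and 117 CPM in control, which gave a log2 fold change of −1.66 ± 0.13 (SE, adjusted p = 0.00339). Of 7 measured monocyte and macrophage markers 1 was lower in carcinoma (MRC1), and the list summed to 331 and 353 CPM in carcinoma and 501 and 507 CPM in control. XDH, which encodes xanthine dehydrogenase and is also known as a protein of the milk fat globule, had 47.5 and 53.5 CPM in carcinoma and 109 and 116 CPM in control, which gave a log2 fold change of −1.16 ± 0.12 (SE, adjusted p = 0.00593). All 5 measured milk genes were lower, summing to 27.1 and 17.0 CPM in carcinoma and 1870 and 1150 CPM in control. NOX4, which encodes an oxidase that releases hydrogen peroxide, had 34.6 and 31.2 CPM in carcinoma and 76.0 and 59.8 CPM in control, which gave a log2 fold change of −1.04 ± 0.18 (SE, adjusted p = 0.0213) that was −0.90 (adjusted p = 0.0941) without C1 and −0.98 without T2. NOX5, which encodes a calcium-activated oxidase, had 1.26 and 1.19 CPM in carcinoma and 5.45 and 6.95 CPM in control, with 4 counts in T2, and a log2 fold change of −2.20 ± 0.33 (SE, adjusted p = 0.0145, or 0.0731 without T1). DUOXA1, NOX4 and NOX5 were picked for mention after their values were seen. The part of the macrophage and milk markers in these differences was not tested.

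**Figure D4:**
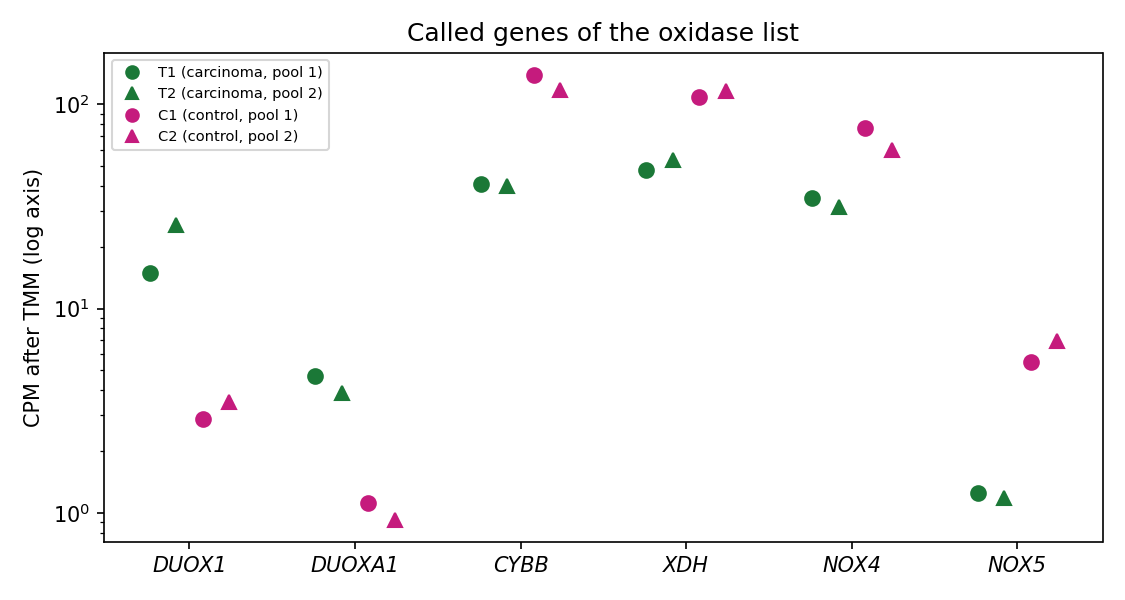
CPM after TMM (log axis) of the 6 called genes of the oxidase list in each library, with carcinoma in green on the left of each gene and control in pink on the right, circles for pool 1 and triangles for pool 2. DUOX1 and DUOXA1 lie higher in both carcinoma libraries, and CYBB, XDH, NOX4 and NOX5 lie higher in both controls.

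Genes of selenoprotein synthesis, the machinery that GPX2 shares with other selenium enzymes, were not called in 8 measured (edgeR, 1 higher and 0 lower at an unadjusted p under 0.05, 0 by DESeq2). SCLY, which encodes the enzyme that frees selenium from selenocysteine, had a log2 fold change of 0.87 ± 0.25 (SE, adjusted p = 0.0869), and SEPHS1 one of −0.27 (adjusted p = 0.239).

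Likeness of pattern was measured as the Euclidean distance between log2 CPM values centered over the 4 libraries, against 10128 other genes with a symbol and a mean of at least 1 CPM. With 4 libraries such a distance mostly reflects the size of the difference between the tissues, and it is given as a description. Nearest to TXNIP were SGMS1 (distance 0.0398), XDH (0.100) and APOC1 (0.108), with SGMS1 at 14.7 and 16.1 CPM in carcinoma and 32.0 and 36.9 CPM in control. Nearest to NQO1 were RUNX1 (0.0724), TMEM163 (0.0813) and ATP6V1B1 (0.0826), with RUNX1 at 876 and 958 CPM in carcinoma and 222 and 236 CPM in control. Nearest to GCLM were GABRB1 (0.109), TMPRSS11E (0.132) and ALK (0.134), with GABRB1 at 70.2 and 55.9 CPM in carcinoma and 23.7 and 22.3 CPM in control. GPX2 had no neighbor so close, and WDR49 (0.798), COL2A1 (0.820) and CDH12 (0.978) came nearest.

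Between the pools, 5 of the 108 other redox genes were called, all lower in pool 1. They were OPLAH, DDIT4, AIFM2, GGT6 and KEAP1, and OPLAH, AIFM2 and GGT6 were picked for mention after their values were seen. OPLAH, which encodes an enzyme of glutathione breakdown, had 5.44 CPM in T1 and 34.5 CPM in T2, with 4.10 CPM in C1 and 15.5 CPM in C2, a log2 fold change of pool 1 over pool 2 of −2.32 ± 0.18 (SE, adjusted p = 8.67e-27). KEAP1 had one of −1.14 ± 0.13 (SE, adjusted p = 1.59e-14). These p-values again hold no variation between sets of dogs. The pool offset of these genes was larger than that of any of the 4 members, whose values lay between −0.20 and 0.17. The choice of the members favored a small offset, so nothing is read from this.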

How the data were processed

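Per the labels and the study's methods, total RNA libraries (TruSeq Stranded Total RNA kit, NextSeq sequencer) were made from 4 pools. The deposited tables hold raw counts per gene. The authors' methods name TopHat2 and HTSeq (with the default options of HTSeq, which count by strand), while STAR, featureCounts, FastQC and DESeq2 are listed in the submitters' notes. Those sources give neither the genome build nor the strand setting of featureCounts, and which counter made the deposited tables was not resolved. The deposited tables also give, as another column, a length per gene, which was not used for levels.

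Counts were tested in R 4.3.3 with edgeR 4.0.16 (filterByExpr, which kept all 11277 genes, TMM, glmQLFit with a prior count of 2, Benjamini-Hochberg), and alternatively with DESeq2 1.42.0. Both were also run on simulated counts with known differences. Those counts varied less between libraries than the real ones (common dispersion 0.0508) and, for the tissue comparison, had no pool effect. That run therefore does not vouch for the calls made here. A standard error (SE) is the size of a log2 fold change over the root of its F. Intervals of ratios within a pool are exact binomial. With 2 libraries in each group an exact permutation test cannot give a two-sided p below 0.333, so calls rest on the model across genes. By the study's account T1 and C1, and T2 and C2, come from the same dogs, and across genes their departures from the means of the groups had a correlation of 0.782, so the pool number as a replicate block was an alternative. Others were RLE size factors, library totals, no filter, at least 10 counts in every library, a prior count of 0.5 and leaving out each library. Named were the 4 members, 14 fixed partners where measured, up to 3 further genes of each list with the smallest p, and 3 nearest patterns. The members and lists were chosen with earlier results of these data known. Not every gene so chosen is printed. Figures were drawn with matplotlib 3.10.9.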

Additional observations from a re-analysis of the deposited data

Results flagged for a closer look

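The log2 ratio of carcinoma to control had opposite signs in the pools for 2 genes named above, and the difference between the pools was not tested. GPX7 had 0.06 in pool 1 and −0.18 in pool 2. NFE2L2 had −0.03 in pool 1 and 0.20 in pool 2. For both genes the 95% counting interval of the ratio included 1 in each pool, with 0.926 to 1.17 and 0.587 to 1.32 for GPX7 and 0.938 to 1.02 and 0.994 to 1.32 for NFE2L2.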

How the results depend on the processing

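The log2 fold changes of GPX2, NQO1, GCLM and TXNIP kept their sign under all 11 alternatives. These genes were chosen on this contrast in the same libraries, so the kept signs are a description and no separate test. Leaving out each library in turn gave 5.00 to 6.03 for GPX2, 1.84 to 2.07 for NQO1, 1.24 to 1.60 for GCLM and −1.30 to −1.01 for TXNIP, where a tissue left with 1 library was assumed to vary like the other. NQO1 was 1.97 with RLE size factors and 2.03 on library totals, which is further from 1.99 than the small spread between its pools.

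The number of genes called higher in carcinoma was 520 and ranged from 342 (without C1) to 507 with a library left out, while 421 to 547 were called lower, against 590. With the replicate block 784 were higher. Of the other redox genes 4 to 8 were called higher and 3 to 4 lower with a library left out. The redox genes so called were not always those called with all libraries. In the pool comparison 74 genes were higher and 575 lower in pool 1. With at least 10 counts in every library 40 were higher, and on library totals 874 were lower. Without the tissue term edgeR called 0 higher and 0 lower, with 122 and 700 at an unadjusted p under 0.05, since the difference between the tissues then counts as error, and DESeq2 with that term called 54 higher and 537 lower.

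GPX7 turned to 0.00 on library totals and to 0.02 with the replicate block, and ranged from −0.34 to 0.15 with a library left out. The cause was not tested. That range was −0.29 to 0.99 for KEAP1, −0.10 to 0.23 for NFE2L2 and −0.05 to 0.51 for NQO2. With no change of sign, it was −1.16 to −0.18 for GPX3, 0.46 to 2.03 for DDIT4 and 0.15 to 1.18 for SQSTM1. Leaving out a library unbalances the pools, so such a range also holds the difference between the pools. The replicate block changed the call of no other redox gene named than HPGDS, PRDX2 and DDIT4. Genes at a few counts in pool 2, such as DUOXA1 and NOX5, are limited by its depth.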

Other observations

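Marker lists of other cell types were followed in the same libraries. Of 5 measured markers of blood endothelium 3 were lower in carcinoma (CDH5, PECAM1 and VWF), and the list summed to 279 and 282 CPM in carcinoma and 589 and 632 CPM in control. The 6 measured basal and myoepithelial markers, of which 0 were called, summed to 1240 and 1570 CPM in carcinoma and 810 and 979 CPM in control. KRT5, MYH11, OXTR and MYLK were higher in carcinoma in both pools, and TP63 and ACTA2 were lower, so the sum does not stand for the whole list. The 4 measured adipocyte markers, of which 0 were called, summed to 89.2 and 125 CPM in carcinoma and 95.6 and 113 CPM in control. In both pools PLIN4 and LIPE were higher in carcinoma, and LPL and PPARG were lower. The 6 measured proliferation genes, of which 0 were called, summed to 162 and 127 CPM in carcinoma and 204 and 180 CPM in control.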
